A study of Mus musculus with 32 samples.

Results

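RNA levels of the RING1 and variant PRC1 genes were compared between WT and Eed -/- mouse embryonic stem cells (mESCs), the pluripotent cells of the early embryo kept in culture. The 10 genes were chosen by symbol (Ring1, Rnf2, Pcgf1, Pcgf2, Pcgf3, Pcgf5, Pcgf6, Rybp, Yaf2 and L3mbtl2) out of 24028 symbols listed in both RNA-seq tables, and all 10 were found. The study asked how Polycomb takes part in keeping DNA methylation valleys, long stretches of unmethylated DNA around developmental genes, free of DNA methylation. Both RNA-seq libraries are labelled as strain TT2, one with the genotype WT and the other with the genotype Eed -/-, and the cells were grown with serum and LIF on gelatin. Eed -/- samples of other assays in the series carry another strain name than TT2, and the mutation and the number of clones behind the Eed -/- RNA are not given in the sources used here. With 1 library per genotype, the differences below have no replicate check and no test, and they compare the 2 libraries rather than the genotypes.

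Polycomb repressive complex 1 (PRC1) is built on a RING1 and a PCGF protein, and this core ubiquitinates histone H2A to give H2AK119ub. Canonical PRC1 holds PCGF2 or BMI1 with a CBX protein that reads H3K27me3, the mark written by PRC2, of which EED is a core subunit. Variant PRC1 holds RYBP or YAF2 in place of the CBX protein, can form with each of the PCGF proteins, reaches chromatin without H3K27me3, and makes most of the H2AK119ub in mESCs. The paralogs name the complexes: PCGF1 joins KDM2B and BCOR at CpG islands, PCGF3 and PCGF5 join AUTS2 and casein kinase, and PCGF6 joins MGA, MAX, E2F6 and L3MBTL2 at germline gene promoters.

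The sequences just upstream of both catalytic genes are shown because Ring1 and Rnf2 encode alternative E3 ligases but differed in level and in their change between the libraries. Both windows are the 250 bases before the RefSeq transcription start (GRCm38.p6), 5′ to 3′ on the gene's strand and with each CG in capitals. Each matched 1 place in mm9, at chr17:34161626-34161875 on the minus strand for Ring1 and at chr1:153348122-153348371 on the minus strand for Rnf2.
Ring1: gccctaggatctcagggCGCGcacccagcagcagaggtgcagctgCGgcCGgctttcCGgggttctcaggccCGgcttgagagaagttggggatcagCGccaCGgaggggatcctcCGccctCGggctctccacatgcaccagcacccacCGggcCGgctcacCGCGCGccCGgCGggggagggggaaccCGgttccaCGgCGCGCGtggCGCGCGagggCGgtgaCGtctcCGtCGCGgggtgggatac
Rnf2: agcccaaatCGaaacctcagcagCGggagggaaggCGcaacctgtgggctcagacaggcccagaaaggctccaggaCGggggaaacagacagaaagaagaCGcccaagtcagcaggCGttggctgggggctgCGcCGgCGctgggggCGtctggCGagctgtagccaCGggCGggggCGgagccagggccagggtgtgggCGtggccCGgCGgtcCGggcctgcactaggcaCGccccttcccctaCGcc
The Ring1 window holds 30 CG dinucleotides at 73.6% G and C, more than 94.1% of 32851 mouse promoter windows of this length, whose median is 6. The Rnf2 window holds 20 CG dinucleotides at 70.4% G and C, more than 82.1% of those windows. Of the 10 genes, 7 have an entry in this promoter set, and the windows of Pcgf3, L3mbtl2 and Pcgf6 hold 16, 13 and 14 CG dinucleotides. The Pcgf2 window holds 5, and the 3 alternative starts of Pcgf5 hold 23, 4 and 28. An E2F motif (TCCCGC on either strand), found in 16.9% of all windows, is present in the Rnf2 and Pcgf2 windows and in 1 of the 3 Pcgf5 windows. An E-box (CACGTG), found in 6.02% of all windows, is present only in the Pcgf2 window among these members. A match is a description of the letters and not evidence of binding.

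The targeted gene itself did not separate the libraries. Eed was listed at 63.0 FPKM in WT and at 70.9 FPKM in the other library, so transcript level does not check the genotype. The study probed H3K27me3 by western blot and ChIP-seq to check the loss of EED in its Eed -/- cells, data that were not analysed here, and "the library labelled Eed -/-" is the wording used for the second RNA library below. FPKM counts fragments relative to the length of the transcript and the size of the library. The values stood on steps of whole fragments, which gave depths of about 7140000 fragments in WT against 6360000 in the library labelled Eed -/-. The intervals below are 95% intervals of counting error at these depths, taken as if all fragments came from the longest coding transcript, and they leave out differences between cultures. A change is the difference in log2(FPKM + 1) after quantile normalization, the library labelled Eed -/- minus WT. On this scale 3.8% of 14835 genes were 2-fold higher and 3.98% were 2-fold lower, while 12.3% and 12.4% passed 1.5-fold in each direction, and the middle of all genes lay between -0.31 and 0.32. Of 8 mESC markers, 1 rose 2-fold (Zfp42, 131 and 272 FPKM, change 1.30) and 0 fell, and 4 passed 1.5-fold higher, with Nanog at 114 and 176 FPKM, Klf4 at 25.5 and 44.4 FPKM and Dppa5a at 250.4 and 372 FPKM beside Zfp42. Pou5f1 was listed at 393 and 373 FPKM, and the list summed to 1329 and 1550 FPKM. Of the 8 mESC marker changes, 6 were above 0 and 2 below. Those below were Utf1 (167 and 106 FPKM, change -0.38) and Sox2 (196 and 157 FPKM, change -0.08). Of the 8 primitive endoderm markers, 1 rose 2-fold (Lama1, 8.25 and 33.5 FPKM) and 0 fell. All 8 changes were above 0, with a median of 0.45, and 3 passed 1.5-fold higher. Beside Lama1 these were Gata4 (0.431 and 1.35 FPKM) and Sox7 (0.314 and 1.15 FPKM). The summed FPKM of the 8 was 81.8 and 106, and 6 of the 8 were under 2 FPKM in both libraries. Sparc, the largest part of both sums, was at 71.9 and 67.9 FPKM, a change of 0.14 after normalization. Dab2 was at 0.499 and 0.515 FPKM (change 0.04), and Sox17 at 0 in WT and 0.449 FPKM in the other library. Trophoblast markers went both ways. Of 6 used, 4 changes were below 0 and 2 above, with a median of -0.53. Krt18 fell 2-fold (12.1 and 4.69 FPKM, change -1.06) and Eomes rose 2-fold (0.478 and 1.93 FPKM, change 1.03). Krt8 (6.88 and 3.53 FPKM), Cdx2 (0.562 and 0.0788 FPKM) and Ascl2 (2.41 and 1.30 FPKM) were also lower. Their changes were -0.69, -0.53 and -0.52. Hand1 was at 0 in WT and 0.541 FPKM in the other library. Elf5 was at 0 in both libraries, and the sums were 22.4 and 12.1 FPKM. Feeder fibroblast markers summed to 2.96 and 10.3 FPKM. Of the 3 used, Thy1 rose 2-fold (0.976 and 6.97 FPKM, change 2.10). Twist1 passed 1.5-fold higher (1.24 and 2.88 FPKM, change 0.85). The collagen genes Col1a1 and Col1a2 were lower in the second library, at 0.460 and 0.137 FPKM and at 0.167 and 0.0312 FPKM. The part of these other cell types in the values below was not tested, and fewer cells of a type cannot be told apart from less RNA per cell.

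On the log2(FPKM + 1) scale, none of the 10 genes passed 2-fold between the libraries. With 0.1 or 0.01 added in place of 1, Pcgf1 was 2-fold higher and Ring1 2-fold lower. Of the 14835 genes used, 1694 were then higher and 1778 lower with 0.1, and 1914 and 1989 with 0.01. The ratios of normalized FPKM for Pcgf1 and Ring1 were 2.67 and 0.446. At 1.5-fold, 2 of 10 were higher (Pcgf1 and Rybp) and 1 of 10 was lower (Ring1), beside the 12.3% and 12.4% of all genes, and on a list of 10 genes each gene is 10%. The median change of the 10 was 0.29, against 0.01 over all genes used. Of the 10 changes, 8 were above 0 and 2 below, beside 7558 above and 7263 below for the 14835 genes used. Their summed FPKM was 178.6 in WT against 188.6 in the library labelled Eed -/-. Without scaling between the libraries the median was 0.09, against -0.091 over all genes, and the change of Pcgf5 was then also below 0.

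**Figure D1:**
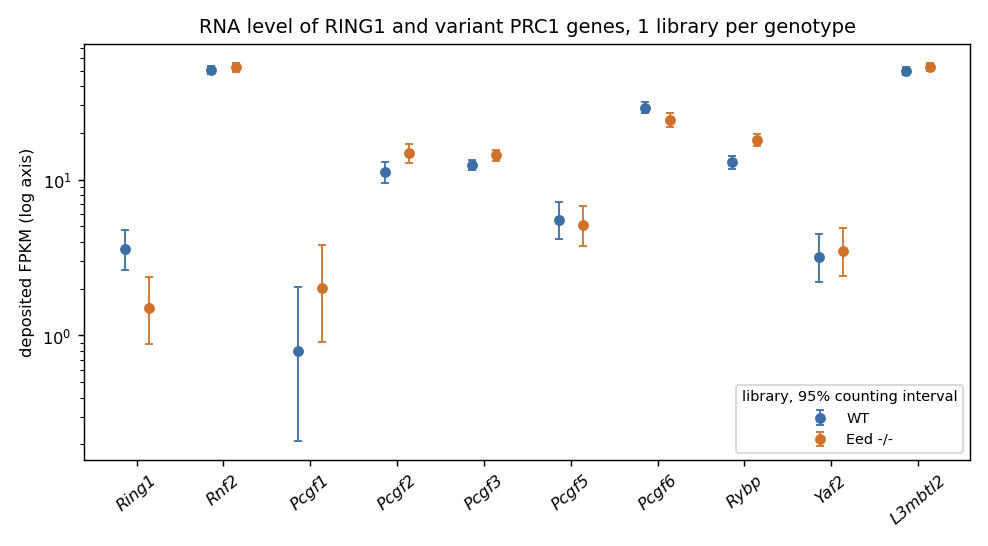
RNA level of each gene in both libraries, as deposited FPKM on a log axis, with bars for the 95% counting interval and 1 library per genotype. Rnf2 and L3mbtl2 stand at about 50 FPKM in both libraries, Pcgf1 is lowest in WT at 0.790 FPKM, and Ring1 is lowest in the library labelled Eed -/- at 1.504 FPKM.

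The order of the levels was led by Rnf2 and L3mbtl2 in both libraries. In WT, Rnf2 (50.7 FPKM) and L3mbtl2 (49.5 FPKM) had overlapping intervals and were followed by Pcgf6 at 29.0 FPKM, apart from both. Rybp, Pcgf3 and Pcgf2 came next at 12.9, 12.4 and 11.2 FPKM, and their intervals overlapped. Pcgf5 and Ring1 at 5.50 and 3.58 FPKM overlapped, as did Ring1 and Yaf2, while Pcgf1 at 0.790 FPKM lay below Yaf2 without overlap. In the library labelled Eed -/- the top 3 were the same genes, Pcgf2 and Rybp overlapped, and neighbours from Pcgf5 downward (Yaf2, Pcgf1 and Ring1) overlapped one by one. The plot of FPKM by gene shows how wide the intervals become below about 5 FPKM.

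Ring1 encodes one of the E3 ligases of PRC1 and lies at chr17:34157737-34161625 (mm9, minus strand, 7 exons). Ring1 was listed at 3.58 FPKM (2.63 to 4.75) in WT and at 1.504 FPKM (0.887 to 2.38) in the library labelled Eed -/-, on about 47.3 and 17.7 fragments. It was lower in the second library and the intervals did not overlap. The ratio of normalized FPKM was 0.446 (0.243 to 0.784), while the change of -0.81 on the log2(FPKM + 1) scale missed 2-fold because the added 1 is large beside these levels. Its change was lower than that of all but 6.79% of genes used, and the median change of the 685 genes used on its chromosome was 0.04.

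Rnf2 encodes RING1B, the main E3 ligase of PRC1 in mESCs, and lies at chr1:153316536-153347953 (mm9, minus strand, 7 exons). Rnf2 was listed at 50.7 FPKM (47.6 to 53.9) in WT and at 52.6 FPKM (49.3 to 56.0) in the library labelled Eed -/-, on about 1030 and 952 fragments. The deposited levels overlapped, and the normalized ratio was 1.21 (1.11 to 1.33) with a change of 0.27 that was 0.05 without scaling. The change of 0.27 was higher than that of 71.4% of genes used. The 758 genes used on chromosome 1 had a median change of -0.29, so the change of Rnf2 relative to its chromosome was 0.57. The part of this chromosome-wide shift in the Rnf2 value was not tested.

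As a share of the RING1 paralogs, Ring1 RNA made up 6.59% (5.01 to 8.63) of the summed FPKM in WT against 2.78% (1.76 to 4.38) in the library labelled Eed -/-. The sum was 54.2 and 54.1 FPKM. Rnf2 was 14.2 times Ring1 in WT and 35.0 times in the other library. In deposited FPKM, the ratio of Ring1 to Rnf2 was 0.405 (0.225 to 0.733) of its WT value. A constant scaling factor per library leaves this ratio unchanged, but quantile normalization can alter it.

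**Figure D2:**
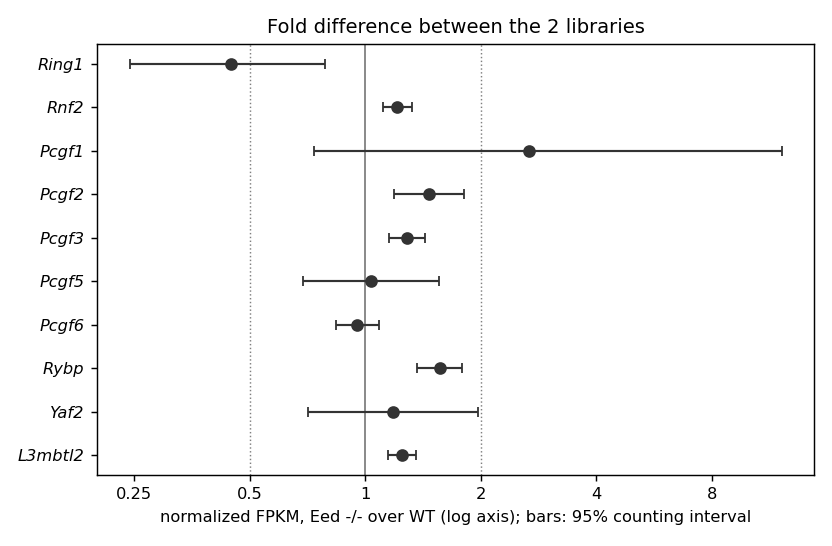
Ratio of normalized FPKM, the library labelled Eed -/- over WT, on a log axis for the 10 genes, with bars for the 95% counting interval, a solid line at 1 and dotted lines at 0.5 and 2. Ring1 (0.446) lies wholly below 1. The intervals of Rnf2, Pcgf2, Pcgf3, Rybp and L3mbtl2 lie wholly above 1 with ratios from 1.21 to 1.56. Those of Pcgf1, Pcgf5, Pcgf6 and Yaf2 span 1. The share of all genes whose interval leaves out 1 was not computed. The changes of Rnf2 (0.27) and L3mbtl2 (0.31) lie within the middle of all genes used (-0.31 to 0.32). The changes of Ring1, Pcgf2, Pcgf3 and Rybp lie outside that range. The bars take the scaling between the libraries as exact.

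The PCGF subunits decide which PRC1 forms, and Pcgf6 was the most abundant of them in both libraries. Pcgf6, at chr19:47108109-47125380 (mm9, minus strand), was listed at 29.0 FPKM (26.6 to 31.5) in WT and at 24.1 FPKM (21.9 to 26.6) in the library labelled Eed -/-. The deposited levels touched at the edge of their intervals, and the normalized ratio of 0.953 (0.836 to 1.09) included 1. Its change was -0.07 with normalization and -0.25 without.

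Pcgf2 (MEL18), the main PCGF subunit of canonical PRC1 in mESCs, lies at chr11:97550137-97561811 (mm9, minus strand). Pcgf2 was listed at 11.2 FPKM (9.56 to 13.0) in WT and at 14.8 FPKM (12.8 to 16.95) in the library labelled Eed -/-. Its level was higher in the second library with intervals that just overlapped, and its normalized ratio was 1.46 (1.19 to 1.80). With its shortest coding transcript the interval widens to 0.991 to 2.17 and includes 1. The change was 0.51.

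Pcgf3 and Pcgf5 encode the subunits of closely related variant complexes. Pcgf3, at chr5:108890251-108935995 (mm9, plus strand), was listed at 12.4 FPKM (11.4 to 13.3) in WT and at 14.3 FPKM (13.2 to 15.4) in the library labelled Eed -/-. The ratio was 1.28 (1.15 to 1.43), with a change of 0.34. Pcgf5, at chr19:36453557-36530682 (mm9, plus strand), was listed at 5.50 FPKM (4.16 to 7.13) and 5.12 FPKM (3.77 to 6.81). These levels overlapped widely, and the Pcgf5 change of 0.04 had the other sign without scaling between the libraries, at -0.09.

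Pcgf1, whose product recruits PRC1 to unmethylated CpG islands together with KDM2B, lies at chr6:83028380-83030841 (mm9, plus strand, 9 exons). Pcgf1 was listed at 0.790 FPKM (0.210 to 2.05) in WT and at 2.00 FPKM (0.906 to 3.83) in the library labelled Eed -/-. These levels rest on about 3.89 and 8.79 fragments, and the intervals overlap. The ratio of 2.67 had an interval of 0.733 to 12.2, so a difference between the libraries was not detectable at this depth although its change of 0.79 passed 1.5-fold. A copy of the Pcgf1 transcript with 97.2% identity lies on the same chromosome at chr6:22683725-22684587, where the annotation names no gene, so fragments could be split between both places.

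The make-up of the PCGF group also differed between the libraries. For this view Bmi1, the remaining PCGF paralog of canonical PRC1 and not one of the 10 genes, was added. Bmi1, at chr2:18598645-18608256 (mm9, plus strand), was listed at 1.14 FPKM (0.752 to 1.64) in WT and at 7.35 FPKM (6.26 to 8.59) in the library labelled Eed -/-. Its change of 2.05 passed 2-fold on the log2(FPKM + 1) scale, which no other PCGF gene did, although Pcgf1 did with 0.1 or 0.01 added. The group summed to 59.9 FPKM in WT against 67.7 FPKM in the library labelled Eed -/-. Pcgf6 made up 48.3% (45.4 to 51.3) of this sum in WT and 35.7% (32.9 to 38.5) in the other library. Bmi1 went from 1.90% (1.31 to 2.74) to 10.9% (9.35 to 12.6), and Pcgf2 from 18.6% (16.3 to 21.2) to 21.8% (19.4 to 24.5). Pcgf3 held 20.6% and 21.1%, Pcgf5 9.18% (7.19 to 11.7) and 7.57% (5.77 to 9.88), and Pcgf1 1.32% (0.492 to 3.49) and 2.96% (1.55 to 5.59). The ratio of Pcgf2 to Pcgf6 was 0.385 in WT against 0.612 in the library labelled Eed -/-, 1.59 (1.24 to 2.03) times as high. The ratio of Bmi1 to Pcgf2, the alternative subunits of canonical PRC1, was 0.102 and 0.498, 4.89 (3.04 to 7.89) times as high.

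**Figure D3:**
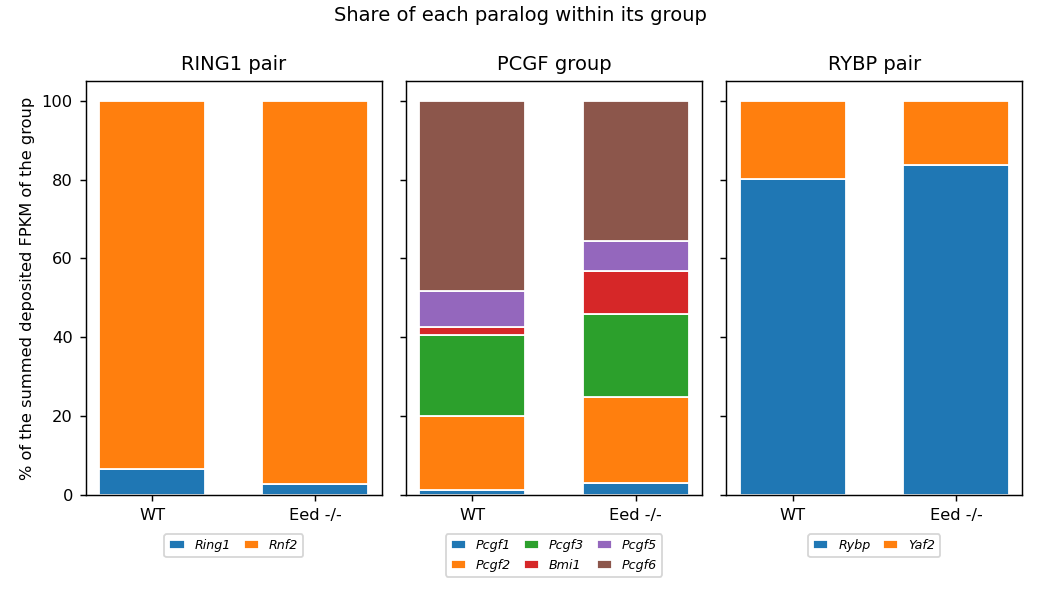
Share of each paralog in the summed deposited FPKM of its group, in percent, for the RING1 genes, the PCGF genes with Bmi1, and the RYBP genes, with a bar for each library. Ring1 takes 6.59% in WT against 2.78% in the library labelled Eed -/-, Pcgf6 takes 48.3% and 35.7%, and Bmi1 takes 1.90% and 10.9%.

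RYBP and YAF2 fill the same place in variant PRC1 and bind H2AK119ub, through which variant PRC1 is known to reinforce its own mark. Rybp, at chr6:100178560-100237435 (mm9, minus strand, 5 exons), was listed at 12.9 FPKM (11.7 to 14.2) in WT and at 18.0 FPKM (16.4 to 19.6) in the library labelled Eed -/-. Its intervals did not overlap, and it was higher in the second library by a ratio of 1.56 (1.36 to 1.79). The change of 0.60 passed 1.5-fold and was higher than that of 88.3% of genes used. The annotated pseudogene Gm6910, at chr13:66108501-66112968, is 99.3% identical to the whole Rybp transcript and is listed in neither library, so fragments of the 2 loci cannot be told apart here. Yaf2, at chr15:93114709-93167366 (mm9, minus strand), was listed at 3.19 FPKM (2.21 to 4.46) and 3.48 FPKM (2.40 to 4.89), which overlap. Rybp made up 80.2% (74.0 to 85.2) of the summed FPKM of both genes in WT against 83.8% (78.4 to 88.0) in the library labelled Eed -/-. The ratio of Yaf2 to Rybp was 0.784 (0.461 to 1.33) of its WT value, an interval that includes 1.

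L3mbtl2, which encodes an MBT-domain protein of the PCGF6 complex, lies at chr15:81494319-81518745 (mm9, plus strand, 17 exons). L3mbtl2 was listed at 49.5 FPKM (46.7 to 52.4) in WT and at 52.8 FPKM (49.7 to 56.0) in the library labelled Eed -/-. The deposited levels overlapped, and the normalized ratio was 1.24 (1.15 to 1.35), with a change of 0.31 that was 0.09 without scaling. L3mbtl2 had a higher change, at 0.31, than 74.0% of genes used. Of its 5945 exon bases, 1023 overlap Chadl on the opposite strand, which was listed at 0.117 and 0.0656 FPKM.

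The subunits that join these cores were described from a list of 21 variant PRC1 partners. Of the 21, 2 rose 2-fold and 1 fell, beside 3.8% and 3.98% of all genes. Bcor and Bcorl1, corepressors of the PCGF1 complex, rose, and Tfdp1, the dimer partner of E2F proteins, fell. Of the 21 changes, 17 were above 0 with a median of 0.14, beside 7558 above 0 for the 14835 genes used. Bcor was listed at 5.55 and 11.1 FPKM with a change of 1.03, which missed 2-fold without scaling between the libraries, and Bcorl1 at 0.513 and 2.53 FPKM with a change of 1.27. Both genes lie on the X chromosome, where the 524 genes used had a median change of 0.46. Tfdp1 was listed at 53.5 and 21.4 FPKM, a change of -1.07, and lies on chromosome 8, where 706 genes had a median of -0.38. The part of these chromosome-wide shifts in the 3 values was not tested, and on autosomes 0 of 19 partners rose 2-fold, 1 fell, and the median was 0.12. Kdm2b, which tethers PCGF1 to CpG islands, was chosen after its values were seen, at 13.9 and 24.0 FPKM with a change of 0.91. The partners with the highest FPKM gave changes of -0.25 for Skp1a (343 and 247 FPKM), 0.02 for Cbx1, 0.12 for Usp7 and 0.08 for Hdac2. Of the DNA-binding subunits of the PCGF6 complex, also named after their values were seen, Mga was listed at 22.3 and 29.1 FPKM, Max at 24.7 and 22.0 FPKM, and E2f6 at 4.01 and 3.96 FPKM, with changes of 0.56, 0.01 and 0.08.

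**Figure D4:**
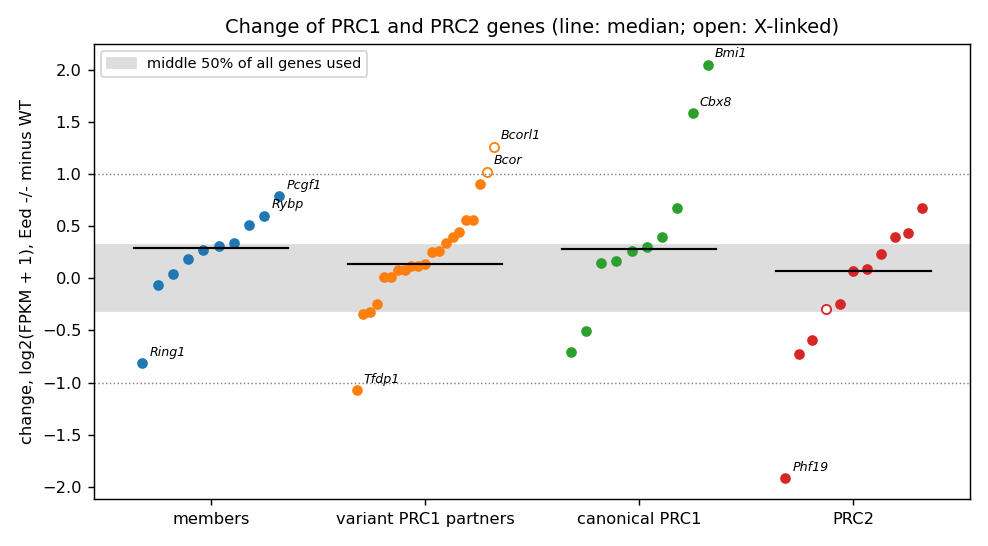
Change in log2(FPKM + 1), the library labelled Eed -/- minus WT, for each gene of 4 lists, with the median as a line, X-linked genes as open points, dotted lines at 2-fold and the middle 50% of all genes used in grey. The 10 RING1 and variant PRC1 genes (labelled members) lie between -0.81 and 0.79, inside 2-fold, while Bmi1, Cbx8, Bcor and Bcorl1 lie above 2-fold and Tfdp1 and Phf19 below.

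Beside these genes, the canonical PRC1 list had 2 of 10 genes that rose 2-fold (Bmi1 and Cbx8) and 0 that fell, with a median change of 0.28, beside 3.8% and 3.98% of all genes. Cbx8, whose product reads H3K27me3, was listed at 1.82 and 6.89 FPKM with a change of 1.59. Other CBX genes gave changes of -0.71 for Cbx7 (24.0 and 12.7 FPKM), 0.68 for Cbx2 (13.0 and 19.1 FPKM) and -0.51 for Cbx6, and the scaffold gene Phc1 gave 0.26. Of 11 PRC2 genes, again beside 3.8% and 3.98% of all genes, 0 rose 2-fold and 1 fell (Phf19, a Tudor-domain subunit, at 13.7 and 2.61 FPKM, change -1.92). At 1.5-fold, 1 of the 11 was higher (Aebp2) and 3 were lower (Phf19, Ezh2 and Rbbp4), beside 12.3% and 12.4% of all genes. Aebp2 was listed at 30.2 and 42.1 FPKM with a change of 0.67. Ezh2 was at 34.2 and 17.7 FPKM and Rbbp4 at 54.9 and 30.9 FPKM, with changes of -0.73 and -0.59. The PRC2 median was 0.07 but was -0.16 without scaling between the libraries and -0.00287 with median-ratio scaling. Jarid2, Rbbp7, Suz12 and Eed, the PRC2 genes with the highest FPKM, gave changes of 0.07, -0.29, 0.23 and 0.40. The 2-fold counts of these lists differ by 1 or 2 genes each, and the difference between lists was not tested.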

How the data were processed

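RNA-seq was analysed for 2 of the 32 samples, 1 library per genotype; ChIP-seq, MethylC-seq and 4C-seq were not analysed here. The authors made strand-specific libraries after removing ribosomal RNA from total RNA, mapped them to mm9 with TopHat and deposited FPKM per gene symbol from Cufflinks. The submitters' processing notes name TopHat2 2.0.11 and Cufflinks 2.2.1, and the annotation and options are not given in the sources used here. The authors quantile-normalized and log-transformed FPKM for their own comparison, and the deposited values of the 2 libraries still differ in distribution, with a median change of -0.091 over all genes.

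For the 268 symbols with more than 1 line the FPKM were summed, the tables were quantile-normalized, and changes were taken as differences in log2(FPKM + 1), which understates changes of low genes. The 14835 genes whose normalized FPKM averaged 0.1 or more were kept, with thresholds of 2-fold and 1.5-fold. Named were all 10 genes, Eed and Bmi1, and of each other list the genes past 2-fold and at most 4 more with the highest FPKM. Kdm2b, Mga, Max, E2f6, Aebp2, Ezh2, Rbbp4, Mysm1, Klf4, Utf1, Sox17, Elf5, Col1a2 and Tdrd1 were added after their values were seen. The genes and lists were chosen with earlier results of these data known.

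Depth was recovered from low FPKM of 4754 genes with 1 transcript of at least 1000 bp, less 180 bp. Of 688 such values in the WT table and 767 in the other, 81.0% and 83.3% lay within 0.1 of a whole fragment, against 19.6% and 17.0% with lengths shuffled. Intervals at 95% are exact Poisson for levels, exact conditional binomial for ratios and the delta method for shares. Where a gene has several transcripts, its fragment number is approximate. Positions came from GENCODE vM1 (mm9), with 20822 of 24028 symbols matched, and promoter windows from RefSeq (GRCm38.p6), placed in mm9 by exact match. Copies were sought with minimap2 2.31 at 80% coverage and 95% identity. The computations were tested on simulated data. All steps ran in Python 3.11.15 with scipy 1.17.1, numpy 2.4.6, matplotlib 3.10.9 and pandas 2.3.3.

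Alternatives were pseudocounts of 0.1 and 0.01, FPKM as deposited without scaling, scaling by the median ratio of genes averaging 2 FPKM or more, a stricter filter at a mean of 1 FPKM, no filter, repeated symbols dropped, changes relative to the chromosome median, shares from rounded fragments, the 1.5-fold threshold, and members on chromosomes 1 and 8 left out.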

Additional observations from a re-analysis of the deposited data

How the results depend on the processing

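No paired analysis was possible because each genotype has 1 RNA-seq library and no test was made. The direction of change was kept under 6 of 6 settings by each of the 10 genes but Pcgf5, which kept it under 5 of 6. The pseudocounts of 0.1 and 0.01 use the same normalized values and cannot change a direction, so they add nothing to this tally. Ring1 ranged from -1.16 to -0.76, Rnf2 from 0.05 to 0.57, Pcgf1 from 0.75 to 1.41 and Rybp from 0.45 to 0.64. L3mbtl2 ranged from 0.09 to 0.32, and the lowest values of Rnf2 and L3mbtl2 were those with FPKM as deposited. The median change of the 10 genes was 0.29, and it was 0.09 with FPKM as deposited, 0.23 with median-ratio scaling, 0.30 with a pseudocount of 0.1 and 0.31 without the gene on chromosome 1. It was 0.23 without Pcgf1 and Rybp, which have a near-identical copy, an alternative chosen after seeing the data. With FPKM as deposited the median of all genes was -0.091 and that of PRC2 -0.16, and a mean FPKM of at least 1 gave -0.087 for PRC2. Of the 10 genes, 1 (Pcgf1) was 2-fold higher and 1 (Ring1) lower with a pseudocount of 0.1, and likewise with 0.01, while 2 were higher and 1 lower at 1.5-fold. Of all genes, 564 were higher and 590 lower, against 455 and 801 as deposited, 1694 and 1778 with a pseudocount of 0.1, 1914 and 1989 with 0.01, and 1819 and 1841 at 1.5-fold. Of the 21 variant PRC1 partners, 1 (Bcorl1) and not 2 was 2-fold higher with FPKM as deposited. Genes below about 5 FPKM (Pcgf1, Yaf2 and Ring1) are limited by depth, and no setting replaces the missing replicates.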

Other observations

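A list of 7 genes held enzymes that remove the ubiquitin placed by PRC1 and their cofactors. Of these, 0 were 2-fold higher and 0 lower, beside 3.8% and 3.98% of all genes, with a median change of -0.02. On a list this short, a count of 0 does not set these genes apart from all genes. At 1.5-fold, 1 of 7 was higher (Mysm1, 5.38 and 8.09 FPKM, change 0.64) and 1 lower (Usp21), beside 12.3% and 12.4% of all genes. Bap1, the catalytic subunit of the PR-DUB complex, was listed at 35.3 FPKM in WT and 29.3 FPKM in the library labelled Eed -/-, a change of -0.06. Its cofactor Asxl1 was listed at 22.6 and 18.7 FPKM, and Usp16 at 15.3 and 15.1 FPKM. Usp21 was listed at 13.6 and 7.20 FPKM, a change of -0.68, and lies on chromosome 1, where the median change was -0.29.

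Germline genes, on whose promoters the PCGF6 complex is known to act in mESCs, went both ways. Of the 14 genes, 3 rose 2-fold and 2 fell, beside 3.8% and 3.98% of all genes, and the median change was -0.21. With a pseudocount of 0.1 or 0.01, 5 were higher and 3 lower, and at 1.5-fold 5 were higher and 2 lower. Of all 14835 genes used, 1694 were higher and 1778 lower with 0.1, and 1914 and 1989 with 0.01. At 1.5-fold the shares of all genes were 12.3% and 12.4%. Dazl, an RNA-binding regulator of germ cells, was listed at 0.709 FPKM in WT and 4.08 FPKM in the library labelled Eed -/-, with a change of 1.64. Smc1b, a meiotic cohesin subunit, was listed at 0.179 and 3.65 FPKM with a change of 2.02, and Mael, of the piRNA pathway, at 2.62 and 6.69 FPKM with a change of 1.19. Ddx4, an RNA helicase of germ cells, was listed at 9.07 and 3.08 FPKM with a change of -1.19, and Hormad1, of the meiotic chromosome axis, at 3.79 and 1.22 FPKM with a change of -1.05. Zcwpw1, Stag3 and Tex101 gave changes of -0.23, -0.36 and -0.28, and Stk31 gave 0.66. Tdrd1, of the piRNA pathway, was listed at 0.618 and 0.0988 FPKM, a change of -0.55.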
